A study of Homo sapiens with 6 samples.

Results

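Glycolysis and the response to low oxygen were followed through 37 named genes on 6 expression arrays. All were of H358, a widely used human cell line that came from a lung tumour of the non-small cell type. The genes encode the glycolytic enzymes, the enzymes that steer pyruvate, the hypoxia-inducible factors with the hydroxylases that restrain them, and well known targets of these factors. A gene counted as measured where the platform annotation gave a probe set that symbol and no other, and the brightest such probe set over the 6 arrays stood for it. This left 34 of the 37, among 18417 genes in all. PGAM1 and EGLN2 had only probe sets that also name a neighbour or relative, CA9 was not named in the annotation used here, and these 3 were not analysed here.

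The arrays compare cells stably expressing green fluorescent protein (GFP, 3 arrays) with cells stably expressing TwistER (3 arrays), a name used for fusions of the Twist transcription factor with a hormone-binding part of the estrogen receptor. Both lines received 4-hydroxytamoxifen (4OHT), the ligand that switches such fusions on, at 100 nM over 12 days. The submitters' titles place GFP before and TwistER after epithelial-mesenchymal transition (EMT). TwistER cells without 4OHT are not among these arrays, and whether either line was a clone or a pool, and what promoter drove the insert, is not given in the sources used here, so an effect of the active factor cannot be told apart from another difference between the lines. Values are log2 expression made by the authors with RMA, and every difference is TwistER minus GFP.

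Glycolysis splits glucose into pyruvate in the cytosol. Hexokinases trap the sugar, phosphofructokinase commits it, aldolase and triose phosphate isomerase cut it into short carbon chains, and the lower enzymes from GAPDH to pyruvate kinase harvest ATP. Lactate dehydrogenase then turns pyruvate to lactate, whereas pyruvate dehydrogenase, which the PDK kinases switch off, sends it to the mitochondrion. When oxygen is short, the prolyl hydroxylases encoded by the EGLN genes no longer mark the HIF alpha subunits for destruction, and HIF raises many glycolytic genes together with VEGFA, CA9, ADM, BNIP3 and others. EGLN3 is itself a HIF target, so that its transcript both reports on the pathway and feeds back on it. HIF is controlled largely at the level of the protein, which these arrays do not measure.

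The 3 GFP arrays were not alike. GFP replicates 2 and 3 correlated at r = 0.996 over all genes, but replicate 1 correlated with them at only 0.983 and 0.982, and many genes of glycolysis were among those in which it differed. The comparison was therefore made both with all 6 arrays and without GFP replicate 1, as the rule for this gene set asks. Among lung epithelial markers, 5 of 6 (EPCAM, KRT7, KRT8, KRT18 and KRT19) lay above the array median on all 6 arrays. CDH1 did so on the 3 GFP arrays only, and 4 of the 6 markers fell. Of the markers of leukocytes (3 measured), endothelium (3) and red cells (1), 0 were above the median of any array. The fibroblast markers LUM and COL1A1 were, 2 of 5. LUM fell, from 7.32 to 8.01 over the GFP arrays to 5.81 to 6.12 over the TwistER arrays (limma adjusted p = 0.000889). COL1A1 rose from a mean of 5.96 to 6.50 (0.0323 in limma), and the endothelial marker PECAM1 from 4.10 to 4.72 (0.0153). Summed over each list, the fibroblast log2 values were 24.6 to 25.3 in GFP and 23.7 to 24.1 in TwistER, and the endothelial ones 11.9 to 12.4 and 12.6 to 12.8. Their part in the results was not tested. In RNA from whole cultures, fewer cells of a kind and less RNA per cell cannot be told apart.

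With all 6 arrays, 4 of the 34 measured genes fell in TwistER and 0 rose, at a Benjamini-Hochberg adjusted p under 0.05 over all genes in limma. Those that fell were ENO2, PFKFB2, PDK3 and EGLN3. Of all genes, 4.11% fell and 4.72% rose. The median difference of the 34 genes was -0.14, against 0.01 over all genes. Without GFP replicate 1, 12 of the 34 fell and 0 rose, where 8.09% of all genes fell and 6.97% rose, and the median was -0.27 against -0.0017 for all genes. The 12 held the 4 genes above and added HK2, GPI, PFKP, ALDOA, TPI1, PGK1, ENO1 and EPAS1. No measured gene of the hypoxia target group passed in either comparison. Every TwistER array lay below every GFP array in 10 of the 34 genes (14.5% of all genes) and above in 3 (13.9% of all genes).

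The promoters of 3 of the 4 genes that fell with all 6 arrays are shown because the HIF proteins bind a short core, ACGTG or GCGTG, in hypoxia response elements. The 250 bases before the start of transcription are those of RefSeq (GRCh38.p14), read 5′ to 3′ on the gene's strand, and capitals mark each core on either strand. The windows are chr12:6914330-6914579 on the plus strand for ENO2, chrX:24465036-24465285 on the plus strand for PDK3 and chr14:33951075-33951324 on the minus strand for EGLN3. PFKFB2 has no entry in that table.
ENO2: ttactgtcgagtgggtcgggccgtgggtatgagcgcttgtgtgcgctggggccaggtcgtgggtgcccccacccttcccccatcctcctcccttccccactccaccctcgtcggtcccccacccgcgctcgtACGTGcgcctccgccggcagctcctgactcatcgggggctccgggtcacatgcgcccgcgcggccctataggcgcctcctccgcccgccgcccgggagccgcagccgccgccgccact
PDK3: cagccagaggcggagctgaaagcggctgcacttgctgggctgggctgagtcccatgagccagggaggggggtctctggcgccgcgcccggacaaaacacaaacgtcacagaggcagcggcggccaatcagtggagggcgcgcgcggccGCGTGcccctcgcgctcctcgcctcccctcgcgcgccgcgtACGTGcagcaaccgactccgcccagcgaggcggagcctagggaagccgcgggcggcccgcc
EGLN3: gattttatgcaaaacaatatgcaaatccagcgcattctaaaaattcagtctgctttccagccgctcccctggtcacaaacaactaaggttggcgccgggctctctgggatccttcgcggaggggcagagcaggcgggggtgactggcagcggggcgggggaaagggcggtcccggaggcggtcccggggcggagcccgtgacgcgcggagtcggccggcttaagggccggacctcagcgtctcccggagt
The ENO2 window held 1 core, which began 118 bases before the start, and the PDK3 window held 2, at 102 and 61 bases. The EGLN3 window held 0. Of the 34 genes, 30 were matched to a promoter, and 22 of these windows (73.3%) held at least 1 core, as did 51.1% of 14237 windows of all measured genes. The element CAGGTG is bound by SNAI and ZEB, repressors that act in EMT. It occurred on either strand in 3 of the 30 (10.0%), namely ALDOA, GPI and HIF1A, and in 16.8% of all windows. A match is a description of the letters and no evidence of binding.

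EGLN3 had the largest difference of the 34 genes with all 6 arrays. It encodes prolyl hydroxylase 3, one of the enzymes that mark HIF alpha for destruction. The GFP arrays read 7.58, 7.64 and 7.74 and the TwistER arrays 6.42, 6.64 and 6.69. All TwistER arrays were at least 0.89 below the lowest GFP array, and GFP replicate 1 sat with its group. EGLN3 fell 2.10-fold (-1.07 ± 0.12 SE, 3 arrays per group, limma adjusted p = 0.000798), and without GFP replicate 1 the difference was -1.11 ± 0.11. Its relative EGLN1, the main oxygen sensor of most cells, did not follow: the mean log2 level was 8.26 ± 0.05 over the GFP arrays and 8.44 ± 0.15 over the TwistER arrays (SD, 3 arrays each). The EGLN1 difference of 0.19 did not pass (95% interval -0.08 to 0.45, limma adjusted p = 0.423).

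PDK3, a kinase that inactivates pyruvate dehydrogenase, read 7.62, 7.55 and 7.39 in GFP and 6.57, 6.61 and 6.62 in TwistER. The groups were far apart, with a spread of 0.05 among the TwistER arrays. PDK3 fell 1.90-fold (-0.92 ± 0.11 SE, limma adjusted p = 0.00113), and 1.83-fold without GFP replicate 1. PDK1, the kinase of this family best known as a HIF target, read 8.25 ± 0.08 and 8.11 ± 0.06 (SD, 3 arrays each), a difference of -0.13 that did not pass (95% interval -0.37 to 0.10). Whether PDK1 and PDK3 differed in their response was not itself tested.

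PFKFB2 makes and removes fructose 2,6-bisphosphate, the strongest activator of phosphofructokinase. It read 6.43, 6.57 and 6.68 in GFP and 5.65, 5.65 and 5.64 in TwistER. The TwistER arrays were nearly identical and all below the GFP range. PFKFB2 fell 1.88-fold (-0.91 ± 0.11 SE, limma adjusted p = 0.0013) and differed by -0.97 ± 0.09 without GFP replicate 1. PFKFB3, the isoform with the highest kinase activity and a HIF target, had a difference of 0.28 ± 0.12 in the other direction, with all TwistER arrays above the GFP arrays, and it did not pass (limma adjusted p = 0.227). PFKFB4 differed by -0.18 ± 0.17 and did not pass either (limma adjusted p = 0.62). GFP replicate 1 was its highest GFP array (5.92 against 5.51 and 5.42). Without that array the differences were 0.18 ± 0.09 for PFKFB3 and -0.03 ± 0.14 for PFKFB4, and neither passed (limma adjusted p = 0.25 and 0.921).

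ENO2, the neuronal enolase, read 5.12, 6.03 and 6.07 in GFP and 4.79, 4.87 and 4.75 in TwistER. Here GFP replicate 1 lay between the groups, 0.25 above the highest TwistER array and 0.93 below the mean of its own partners. ENO2 fell 1.91-fold with all arrays (-0.94 ± 0.24 SE, limma adjusted p = 0.0448), and 2.37-fold without GFP replicate 1 (-1.25 ± 0.09, limma adjusted p = 0.000207). The call with all 6 arrays was lost whenever any array other than GFP replicate 1 was left out, with differences of -0.77 to -0.97 and a highest adjusted p of 0.156. The calls of EGLN3, PDK3 and PFKFB2 held without each array in turn, with highest adjusted p-values of 0.00621, 0.0102 and 0.0109 in limma.

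**Figure D1:**
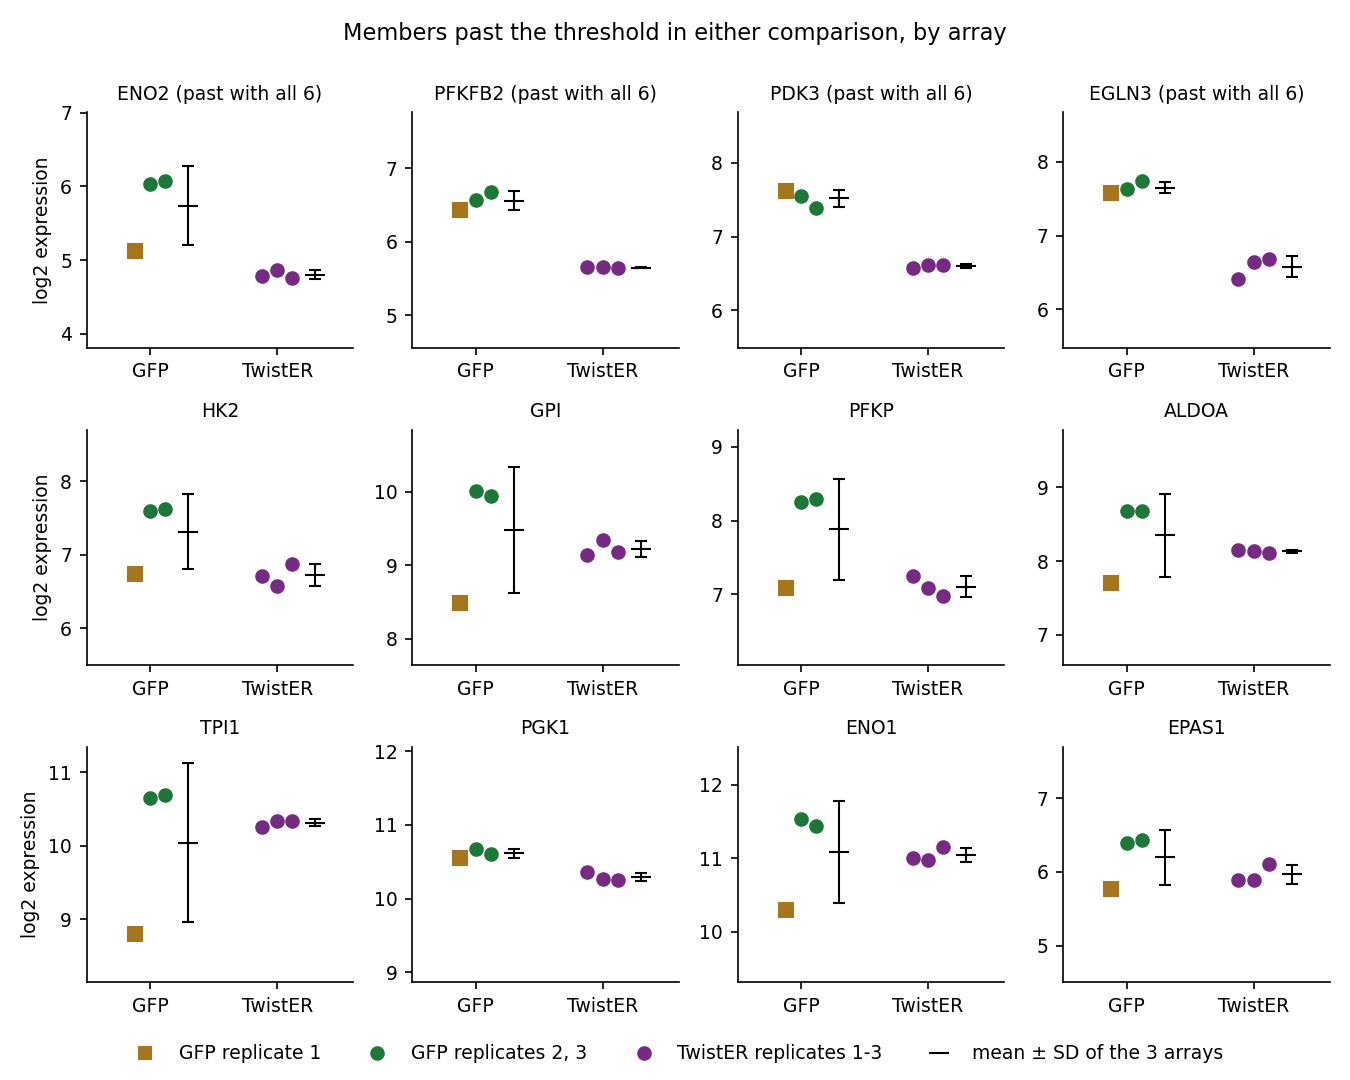
Log2 expression (vertical axes, each spanning the same number of log2 units) of the 12 genes past the threshold in either comparison, by group, with a square for GFP replicate 1, circles for the other arrays, and the mean ± SD of the 3 arrays of each group beside them. In EGLN3, PDK3 and PFKFB2 the GFP replicate 1 square sits with the GFP circles, whereas in GPI (8.49 against 10.00 and 9.94) and TPI1 (8.80 against 10.65 and 10.69) it lies below all other arrays.

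The enzymes of upper glycolysis, from hexokinase to triose phosphate isomerase, split the GFP arrays. Of 9 measured, 0 passed with all 6 arrays and 5 fell without GFP replicate 1, where 8.09% of all genes fell. GFP replicate 1 read below the mean of GFP replicates 2 and 3 in all 9, by a median of -0.87. Across the whole series it was below that mean in 9381 of 18417 genes. PFKP, the platelet type of phosphofructokinase, read 7.09, 8.26 and 8.30 in GFP and 7.25, 7.08 and 6.98 in TwistER. GFP replicate 1 was within the TwistER range, and its 2 partners were more than 1 log2 unit above it. The PFKP difference was -0.78 ± 0.29 with all arrays (limma adjusted p = 0.165), and without GFP replicate 1 PFKP fell 2.26-fold (-1.17 ± 0.11, limma adjusted p = 0.000606). The other phosphofructokinase genes did not pass in either comparison: without GFP replicate 1, the muscle type PFKM differed by -0.22 (95% interval -0.43 to -0.01) and the liver type PFKL by -0.07 (-0.35 to 0.22).

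HK2, the inducible hexokinase of many tumours, read 6.73, 7.59 and 7.62 in GFP and 6.72, 6.58 and 6.87 in TwistER, with GFP replicate 1 inside the TwistER range. HK2 differed by -0.59 ± 0.23 with all arrays (limma adjusted p = 0.177) and fell 1.85-fold without GFP replicate 1 (-0.88 ± 0.11, limma adjusted p = 0.00226). HK1, the constitutive hexokinase, differed by 0.03 with all arrays and by -0.10 without GFP replicate 1, and passed in neither (limma adjusted p = 0.938 and 0.593).

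In GPI, ALDOA and TPI1, the TwistER arrays lay between GFP replicate 1 and its partners. GPI, which turns glucose 6-phosphate to fructose 6-phosphate, read 8.49, 10.00 and 9.94 in GFP and 9.14, 9.35 and 9.18 in TwistER. ALDOA, the main aldolase of most cells, read 7.70, 8.68 and 8.67 against 8.15, 8.13 and 8.11. TPI1, triose phosphate isomerase, read 8.80, 10.65 and 10.69 against 10.26, 10.33 and 10.34. With all arrays these differences were -0.25, -0.22 and 0.27, each with an interval that spans 0. Without GFP replicate 1, GPI fell 1.68-fold (limma adjusted p = 0.00314), ALDOA 1.46-fold (0.00593) and TPI1 1.28-fold (0.0365). The sign of the TPI1 difference thus turned with that array. Among the 5 remaining arrays, the ALDOA call was lost without GFP replicate 2 or 3 (highest adjusted p = 0.0605 in limma) and the TPI1 call without any of them (0.199). A further TPI1 probe set showed the same order, with 8.09, 9.56 and 9.40 in GFP and 9.10, 9.06 and 9.06 in TwistER. ALDOC, a minor aldolase, differed by -0.01 with all arrays and -0.12 without GFP replicate 1 and did not pass in limma (adjusted p = 0.987 and 0.505).

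Of the 5 measured enzymes of lower glycolysis, 1 fell with all 6 arrays (ENO2) and 3 without GFP replicate 1 (ENO2, ENO1 and PGK1). The shares of all genes that fell were 4.11% and 8.09%. ENO1, the ubiquitous enolase, read 10.29, 11.53 and 11.43 in GFP and 11.00, 10.97 and 11.15 in TwistER. The TwistER arrays were again between GFP replicate 1 and its partners. The ENO1 difference was -0.04 ± 0.29 with all arrays and -0.44 ± 0.10 without GFP replicate 1 (limma adjusted p = 0.0268). PGK1, which makes the first ATP of the pathway, was the enzyme here in which GFP replicate 1 stayed closest to its partners. It read 10.56, 10.67 and 10.61 against 10.36, 10.27 and 10.25, with no overlap. The PGK1 difference was -0.32 ± 0.10 with all arrays (limma adjusted p = 0.101) and -0.35 ± 0.09 without GFP replicate 1 (0.0422). Of these calls among 5 arrays, PGK1 was lost without any further array (highest adjusted p = 0.243 in limma), and ENO1 without any but TwistER replicate 3 (0.188).

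GAPDH, often used as a reference transcript, read 11.49, 12.17 and 12.11 in GFP and 11.89, 11.98 and 11.89 in TwistER. Its group means were almost the same, but the GFP arrays spanned 0.69. The GAPDH difference was -0.0034 with all arrays (95% interval -0.42 to 0.41) and -0.22 without GFP replicate 1 (-0.43 to -0.01), and it passed in neither (limma adjusted p = 0.994 and 0.157). PKM, pyruvate kinase, read 11.40, 11.84 and 11.82 against 11.53, 11.51 and 11.51. Its difference was -0.17 with all arrays and -0.31 without GFP replicate 1, where it just missed the threshold (limma adjusted p = 0.0507).

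Over upper and lower glycolysis, GFP replicate 1 was below the mean of its partners in 14 of 14 glycolytic enzymes, by a median of -0.77. It was below that mean in 9381 of 18417 genes. In 9 of the enzymes (64.3%) it was lower by at least 0.5, a size reached downward by 9.72% of all genes. In 8 of the 14 (57.1%) every TwistER array lay above GFP replicate 1 and below both other GFP arrays, an order found in 5.70% of all genes. Without GFP replicate 1 all 14 differences were below 0, with a median of -0.35, and 8 of the 14 fell. In that comparison 9265 of 18417 differences over all genes were below 0, with a median of -0.0017, and 8.09% fell. The labels give no batch, density or time of collection for the arrays, and the reason that GFP replicate 1 differed in these genes was not tested.

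**Figure D2:**
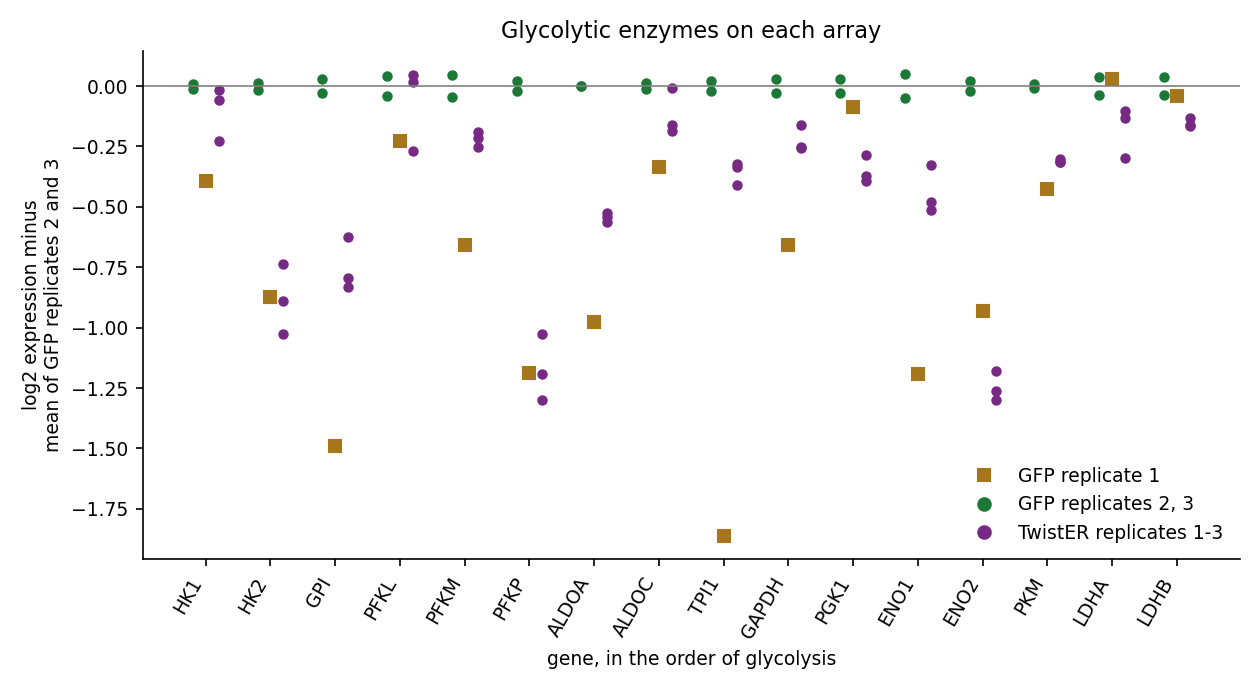
Log2 expression minus the mean of GFP replicates 2 and 3 (vertical axis) for 14 glycolytic enzymes and both lactate dehydrogenase genes in the order of the pathway (horizontal axis), with a square for GFP replicate 1 and circles for the other arrays. GFP replicate 1 is below 0 in all 14 enzymes, down to -1.86 in TPI1, and close to 0 in LDHA (0.03) and LDHB (-0.04).

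Both lactate dehydrogenase genes showed small differences between the groups. LDHA, the muscle-type subunit and a HIF target, read 11.85, 11.86 and 11.78 in GFP and 11.69, 11.72 and 11.52 in TwistER. LDHB, the heart-type subunit, read 11.84, 11.92 and 11.85 against 11.76, 11.72 and 11.72. In both genes every TwistER array was below every GFP array by a small margin, and GFP replicate 1 sat with its partners. The LDHA difference was -0.19 (95% interval -0.43 to 0.06) and the LDHB difference -0.14 (-0.36 to 0.09), and neither passed in limma (adjusted p = 0.376 and 0.501).

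The HIF alpha subunits showed small differences in the same direction. HIF1A read 10.80, 10.64 and 10.57 in GFP and 10.40, 10.35 and 10.25 in TwistER, without overlap. Its difference was -0.34 ± 0.11 with all arrays (limma adjusted p = 0.112) and -0.27 ± 0.09 without GFP replicate 1 (0.105). EPAS1, which encodes HIF-2 alpha, read 5.76, 6.39 and 6.43 against 5.89, 5.89 and 6.11, with the TwistER arrays between GFP replicate 1 and its partners. EPAS1 differed by -0.23 ± 0.18 with all arrays (limma adjusted p = 0.556) and fell 1.36-fold without GFP replicate 1 (-0.45 ± 0.10, limma adjusted p = 0.0291), a call lost without any further array but TwistER replicate 3 (highest adjusted p = 0.163).

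None of the 9 measured genes of the hypoxia target group passed in limma, with or without GFP replicate 1; the lowest adjusted p was 0.0974 with it and 0.0755 without it, both for DDIT4. DDIT4, an inhibitor of mTOR induced by stress, read 6.21, 5.80 and 5.70 in GFP and 5.33, 5.46 and 5.51 in TwistER. It was the sole gene of the group in which all TwistER arrays were below all GFP arrays, and GFP replicate 1 was the highest of them. Its difference was -0.47 ± 0.15 with all arrays and -0.32 ± 0.10 without GFP replicate 1. The mitophagy receptor BNIP3L was the one gene of the group with all TwistER arrays above GFP, by 0.15 on average (95% interval -0.08 to 0.38). Such separation was common: every TwistER array lay below every GFP array in 14.5% of all genes and above in 13.9%.

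With all arrays, the angiogenic factor VEGFA differed by -0.13 (95% interval -0.45 to 0.19) and the vasodilator peptide gene ADM by -0.29 (-0.60 to 0.02). NDRG1, a stress-responsive gene often used as a hypoxia marker, differed by -0.07 (-0.46 to 0.33), and BNIP3, a relative of BNIP3L, by 0.01 (-0.23 to 0.26). For these 4 genes the intervals leave out a change of 2-fold in either direction, since none reaches 1 or -1 on the log2 scale. Without GFP replicate 1, VEGFA differed by -0.27 (-0.49 to -0.05), ADM by -0.37 (-0.67 to -0.06) and NDRG1 by -0.27 (-0.50 to -0.04). BNIP3 then differed by 0.08 (-0.13 to 0.29). In VEGFA, NDRG1 and BNIP3 the TwistER arrays lay between GFP replicate 1 and its partners. These were 3 of the 9 targets (33.3%), against 8.89% of all genes, and in BNIP3 GFP replicate 1 was the highest. ANKRD37, a short ankyrin-repeat HIF target, differed by -0.03 and the histone demethylase gene KDM3A by 0.12. CA12, a membrane carbonic anhydrase, differed by 0.17 and was dim on these arrays, with a mean level above that of 24.1% of all genes. The group as a whole had a median of -0.03 with all arrays and -0.01 without GFP replicate 1, with 5 differences below 0 and 4 above in each.

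**Figure D3:**
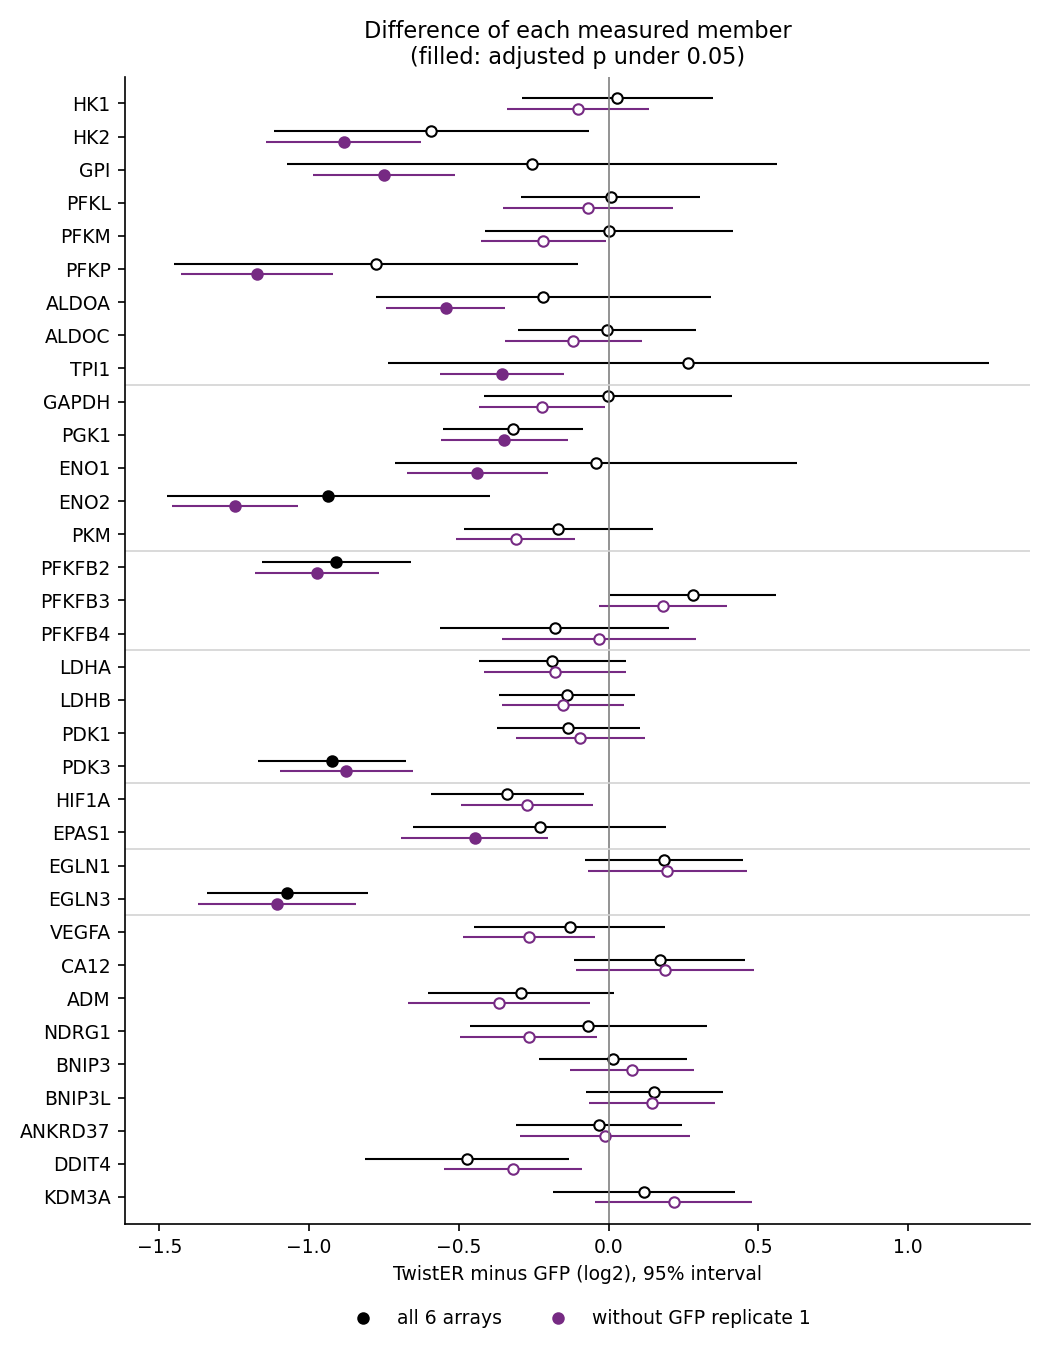
TwistER minus GFP on the log2 scale (horizontal axis) with limma's 95% interval for each of the 34 measured genes, ordered by role with grey lines between roles, in black with all 6 arrays and in purple without GFP replicate 1; filled circles mark a limma adjusted p under 0.05. Black circles are filled for ENO2, PFKFB2, PDK3 and EGLN3, 12 purple ones are filled, and the 9 hypoxia targets at the bottom have open circles in both.

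Few other genes of glucose handling passed. Of 24 measured, 1 rose and 1 fell with all 6 arrays, near the shares over all genes (4.72% and 4.11%). Without GFP replicate 1, 1 rose and 3 fell, where 6.97% of all genes rose and 8.09% fell. The median of the 24 was 0.03 with that array and -0.05 without it. SLC2A3, the high-affinity glucose transporter GLUT3, read 5.84, 6.02 and 6.27 in GFP and 6.61, 6.55 and 6.54 in TwistER, and rose 1.44-fold (0.52 ± 0.13, limma adjusted p = 0.0418). SLC2A1, the transporter GLUT1 and a HIF target, read 8.16, 9.63 and 9.63 against 8.45, 8.81 and 8.74, in the same order as GPI and ALDOA. It differed by -0.47 ± 0.36 with all arrays (limma adjusted p = 0.532) and fell 1.95-fold without GFP replicate 1 (-0.97 ± 0.12, 0.00265). TIGAR, a phosphatase that lowers fructose 2,6-bisphosphate, fell 1.69-fold (-0.75 ± 0.17, limma adjusted p = 0.0307). Its TwistER mean of 4.07 was dim, below the 25th percentile of gene means (4.21). The phosphoglucomutase PGM2 fell 1.27-fold without GFP replicate 1 (limma adjusted p = 0.0435). The call of SLC2A3 with all arrays was lost without GFP replicate 2 or any TwistER array, and that of TIGAR without any TwistER array, with highest adjusted p-values of 0.146 and 0.129 in limma. That of PGM2 was lost without any further array (0.265). Among genes past the threshold in neither comparison, LDHC (-0.39) and glycogen synthase GYS1 (0.36) had the largest differences with all arrays. LDHC was dim, with a mean level above that of 16.8% of all genes.

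At the entry of pyruvate into the mitochondrion, 1 of 12 measured genes rose and 1 fell with all 6 arrays. The shares over all genes were 4.72% and 4.11%. Without GFP replicate 1, 1 rose and 2 fell, where 6.97% of all genes rose and 8.09% fell. PDP1, the catalytic subunit of the phosphatase that reverses the PDK kinases, read 11.10, 10.94 and 10.87 in GFP and 10.21, 10.32 and 10.20 in TwistER, with a wide gap between the groups. PDP1 fell 1.66-fold (-0.73 ± 0.11, limma adjusted p = 0.0045). PDPR, the regulatory subunit of that phosphatase, read 7.38, 8.16 and 8.15 against 8.71, 8.79 and 8.70 and rose 1.78-fold (0.84 ± 0.20, limma adjusted p = 0.0394), or 1.49-fold without GFP replicate 1. DLAT, the acetyltransferase of the pyruvate dehydrogenase complex, fell 1.39-fold without GFP replicate 1 (limma adjusted p = 0.0146). The PDPR call with all arrays was lost without any TwistER array (highest adjusted p = 0.142 in limma), and the DLAT call without GFP replicate 2 or 3 (0.112), while PDP1 passed without each array in turn. PDK2 (0.35) and PDHB (-0.29) did not pass.

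Among 15 measured regulators of HIF, 2 rose and 0 fell with all 6 arrays, where 4.72% of all genes rose and 4.11% fell. Without GFP replicate 1, 3 rose and 2 fell, where 6.97% of all genes rose and 8.09% fell. ARNT2, a partner with which HIF alpha can pair, rose 1.48-fold (0.57 ± 0.13, limma adjusted p = 0.0265), and CITED2, which competes with HIF for its co-activator, rose 1.32-fold (0.40 ± 0.10, 0.0472). Without GFP replicate 1, OS9 also rose 1.27-fold (limma adjusted p = 0.0474), while the ubiquitin ligase scaffold CUL2 fell 1.35-fold (0.0393) and the transmembrane prolyl hydroxylase P4HTM 1.51-fold (0.021). Each of these 5 calls was lost on leaving out 1 array: ARNT2 without GFP replicate 2 or any TwistER array, CITED2 without any array but GFP replicate 1, OS9 and CUL2 without any further array, and P4HTM without GFP replicate 2, GFP replicate 3 or TwistER replicate 2. The highest limma adjusted p-values were 0.121, 0.163, 0.26, 0.266 and 0.144. ELOB (0.61) and ARNT (0.41), the usual partner of HIF alpha, did not pass with either set of arrays.

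Of 35 further hypoxia targets, 3 rose and 5 fell with all 6 arrays, where 4.72% of all genes rose and 4.11% fell. Without GFP replicate 1, 5 rose and 9 fell, where 6.97% of all genes rose and 8.09% fell. The median of the 35 was -0.07 with that array and -0.01 without it. The 3 targets that rose with all 6 arrays were LOX, P4HA2 and PPP1R3C. LOX, which cross-links collagen, read 7.26, 6.85 and 6.90 in GFP and 10.81, 10.86 and 10.74 in TwistER, and P4HA2, a collagen prolyl hydroxylase, read 7.39, 8.50 and 8.34 against 9.47, 9.48 and 9.42. LOX rose 13.9-fold (3.80 ± 0.13, limma adjusted p = 3.06e-06). P4HA2 rose 2.60-fold with all arrays (1.38 ± 0.26, limma adjusted p = 0.0121) and 2.05-fold without GFP replicate 1. PPP1R3C, which targets a phosphatase to glycogen, rose 1.71-fold (0.78 ± 0.12, limma adjusted p = 0.0043). AKAP12, a scaffold of protein kinase A, fell 1.90-fold (-0.93 ± 0.13, limma adjusted p = 0.00286), the endoplasmic reticulum oxidase ERO1A 1.85-fold (-0.89 ± 0.15, 0.00754) and the secreted hormone gene STC2 1.63-fold (-0.71 ± 0.17, 0.0325). With all arrays as the start, the P4HA2 call was lost without any TwistER array (highest adjusted p = 0.057 in limma) and the STC2 call without any array but GFP replicate 1 (0.13). PLOD1 (0.65) and HIGD1A (-0.54) had the largest differences with all arrays among the targets that passed in neither comparison.

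**Figure D4:**
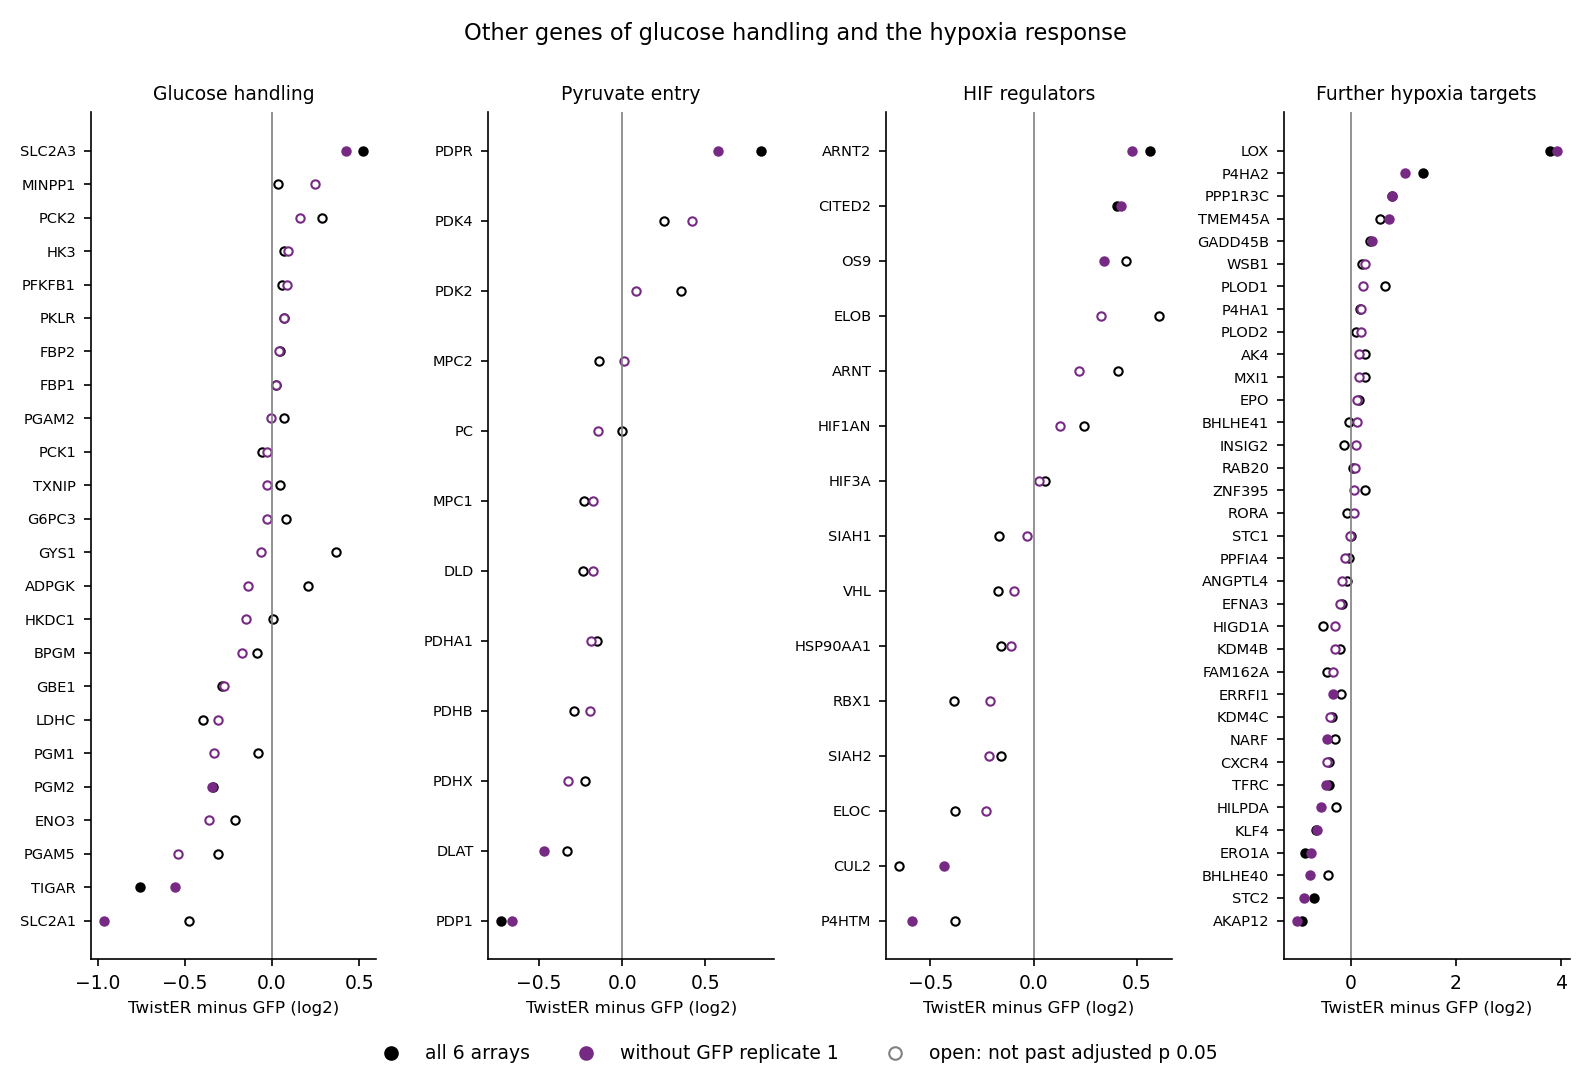
TwistER minus GFP on the log2 scale (horizontal axes, which differ between panels) for the measured genes of 4 further lists, in black with all 6 arrays and in purple without GFP replicate 1; filled circles mark a limma adjusted p under 0.05. LOX, at 3.80, lies far to the right of the others, and SLC2A1 moves from -0.47 to -0.97 when GFP replicate 1 is left out.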

How the data were processed

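Biotin-labelled total RNA from 6 H358 samples was read on Affymetrix arrays, as the labels' protocols describe. The deposited series table gives 1 log2 value for each probe set and array. The submitters' processing notes name RMA, without its settings, as the authors' method. RMA equalises the distributions of the arrays, so a shift of the whole transcriptome would not show.

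The treatment label set the groups. Titles speak of biological replicates and give no further detail, so each p-value reflects only how far these arrays scatter. Of 33297 probe sets, 19460 carried 1 gene symbol, which gave 18417 genes. Glycolytic genes have processed pseudogenes that may share probes with them.

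The groups were compared by limma 3.58.1 (lmFit, eBayes) under R 4.3.3, without covariates. P-values are 2-sided and Benjamini-Hochberg adjusted over all genes, with a threshold of 0.05. "Rose" and "fell" mean past that threshold, SE and intervals are limma's, and folds are on the linear scale. The model was tested on simulated data. Tables and plots were made in Python 3.11.15 with pandas 2.3.3 and matplotlib 3.10.9. The members, lists, motifs and the omission of GFP replicate 1 were chosen with earlier results of these data known. All members are named, with the value of every array for those past the threshold in either comparison and for 6 others with the highest level or largest difference. From each further list, up to 6 genes past the threshold in either comparison and 2 that did not pass are named by the size of the difference with all 6 arrays. Other normalizations (cyclic loess, quantile again, medians set equal), filters on dim genes, averaging a gene's probe sets, a robust trended variance, weighting the arrays, the replicate number as a block, and omission of single arrays were tried. The number of arrays limits precision.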

Additional observations from a re-analysis of the deposited data

How the results depend on the processing

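With all 6 arrays, 4 of the 34 genes fell, 3 to 12 did when 1 array was left out, and 12 did with array weights, while 0 rose in any of these fits or under the other alternatives run. Over all genes the calls numbered 1627, 831 to 2773 when 1 array was left out, and 3268 with array weights. The value of 12 members and the 2773 calls are those without GFP replicate 1. From that comparison, leaving out 1 further array gave 7 to 10 falls and 1101 to 2473 calls; HK2, GPI, PFKP, ENO2, PFKFB2, PDK3 and EGLN3 passed in each such fit, and ALDOA, TPI1, PGK1, ENO1 and EPAS1 did not. Where 1 GFP array remained, it was assumed to vary like the TwistER arrays. Without GFP replicate 1 the falls were 9 with a second quantile normalization, 10 with cyclic loess, 11 with median centring, 14 and 17 with genes above the 25th and 50th percentiles of brightness, and 17 with a trended robust variance. With all 6 arrays as the starting point, signs turned in 3 of the 12 genes past the threshold in either comparison, none of which passed there. GPI was 0.0087 without GFP replicate 2, and its range when 1 array was left out was -0.75 to 0.0087. TPI1 was -0.26 with array weights, and -0.36 to 0.59 when 1 array was left out, the lowest being without GFP replicate 1. ENO1 was 0.043 with cyclic loess and 0.035 with a second quantile normalization, and -0.44 to 0.18 when 1 array was left out, with 0.18 without GFP replicate 2 and 0.13 without GFP replicate 3. For the members that passed in neither comparison, only the omission of arrays was looked at gene by gene. Of these, HK1, PFKL, PFKM, ALDOC, GAPDH, NDRG1, BNIP3 and ANKRD37 also turned when 1 array was left out. Whether these or others turned under the other alternatives is not reported here. The cause was not tested.

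The labels do not say whether arrays with the same replicate number were made together. Their deviations from the group means correlated at 0.139, 0.0154 and 0.157 for replicates 1, 2 and 3. Pairs with different numbers correlated at -0.16 to 0.04, the highest being GFP replicate 2 with TwistER replicate 3. Replicates 1 and 3 were thus above every such pair, and replicate 2 was not. With the replicate block, 4 members fell and 1592 genes were called with all 6 arrays, and 8 members and 1836 genes without GFP replicate 1.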
